A study of Stylophora pistillata with 6 samples.

Results

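Gene models named for proteins that carry lipids were compared between day and night samples of the symbiotic reef coral *Stylophora pistillata*. They were BLC (Spis7606) and APOD (Spis7607), which carry consecutive ID numbers and were both named for lipocalins, and APLP (Spis15601), named for the apolipophorins, 3 of the 25769 gene models in the deposited table. They were picked from the gene models that the study had called between day and night on these same libraries, so their day to night differences chose them and are given as a description with no test. The names are best BLAST hits in other organisms: BLC to an outer membrane lipoprotein of *Vibrio cholerae*, APOD to apolipoprotein D of the mouse and APLP to the apolipophorins of the locust *Locusta migratoria*.

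Day samples (n = 3) were taken when 1 h of light remained and night samples (n = 3) when 1 h of darkness remained, light and darkness lasting 12 h each. Irradiance was 175 µmol photons m-2 s-1, with water at 25 °C and a salinity of 38, and the corals were fed rotifers and Artemia nauplii. Both groups were branch apex tissue of microcolonies cut as 6 to 10 mm fragments from 3 syngenic parent colonies and left to recover for 10 days, so they stand for 1 genotype in an aquarium. The tissue is a mixture of coral cells with algal symbionts, and with bulk RNA, fewer cells that express a gene and less RNA per cell cannot be told apart. Reads counted on coral gene models numbered 1552480 to 6619275 per day library and 1916270 to 3062255 per night library. The tissue label could not be checked against lists of cell type markers, since the table gives IDs without names. The 1 marker named on the study's list, galaxin (Spis11963), a protein of the coral skeleton, had 99.45 to 129 CPM in day libraries and 54.8 to 68.4 CPM in night libraries. That list holds gene models called on these libraries, so this difference was fixed by the choice and nothing is read from it about cell types.

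Lipocalins are small, mostly secreted proteins that fold into a barrel around a hydrophobic ligand. Apolipoprotein D is a member that binds fatty acids and steroids in mammals, and bacterial Blc is a lipocalin anchored in the outer membrane. Apolipophorins are the large protein of insect lipophorin, the particle that shuttles lipid between tissues through the hemolymph, and belong to the same family as vitellogenin and apolipoprotein B. In reef corals the algae supply fixed carbon in the light, part of which the host stores as lipid.

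Of the lipid carriers, only APLP has sequence in the sources used here, as the amplicon on the study's list of PCR primers, and it is shown because it fixes the stretch of this transcript that the primers read. Capitals mark the sites of the primers, 22 bases at each end, around 77 bases in lower case. The assay is tied to Spis15601 by its name alone. In the study's PCR on new samples APLP was also higher by day, but did not reach the fold the study required of its candidate genes.
APLP amplicon: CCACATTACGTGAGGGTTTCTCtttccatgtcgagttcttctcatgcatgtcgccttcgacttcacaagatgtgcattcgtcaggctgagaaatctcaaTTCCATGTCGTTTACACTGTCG

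The 2 lipocalins were lower in day samples and the apolipophorin was higher. Levels are counts scaled to library size (CPM) with TMM factors, and every fold change is day minus night on the log2 scale, with the standard error of the fit across all gene models. In that fit, with edgeR's quasi-likelihood test, 3 of 3 passed an adjusted p of 0.05, as their choice had largely fixed. Of the 24180 gene models with a read, 0.666% did so. Nothing is read from that count. BLC and APOD also passed in all 16 alternative settings, and APLP in 8 of them, but on the libraries that chose them, so these passes are no further test.

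APOD showed the widest separation. It had 31, 10 and 77 reads in the day libraries and 209, 120 and 187 reads in the night libraries, replicates 1 to 3 in order. After scaling these were 11.1, 6.41 and 11.3 CPM by day and 67.6, 62.7 and 73.2 CPM by night. The lowest night library lay 5.53-fold above the highest day library, and the night libraries differed among themselves by no more than 1.17-fold. The means were 9.61 ± 2.77 CPM in day samples and 67.8 ± 5.28 CPM in night samples (SD, n = 3 each), a log2 fold change of -2.75 (standard error 0.23), or 6.70-fold lower by day.

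BLC, next to it in number, had 36, 18 and 56 reads in the day libraries and 95, 69 and 105 reads in the night libraries. These were 12.9, 11.5 and 8.24 CPM by day and 30.7, 36 and 41.1 CPM by night. The groups did not overlap, and the gap between the highest day and the lowest night library was 2.39-fold, narrower than for APOD. BLC averaged 10.9 ± 2.39 CPM in day samples and 36 ± 5.18 CPM in night samples (SD, n = 3 each), a log2 fold change of -1.76 (standard error 0.26), or 3.39-fold lower by day.

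APLP was read far more deeply and in the other direction, with 3952, 1977 and 5504 reads in the day libraries and 2106, 986 and 926 reads in the night libraries. These were 1414, 1267 and 809.7 CPM by day and 682, 515 and 363 CPM by night. The groups did not overlap, but only just: day replicate 3, the lowest day library and the deepest of all, lay 1.19-fold above night replicate 1. The means were 1164 ± 315 CPM in day samples and 519.7 ± 159.6 CPM in night samples (SD, n = 3 each), a log2 fold change of 1.16 (standard error 0.27), or 2.24-fold higher by day. Over all gene models with a read, 5.05% had every day library above every night library and 5.04% had every day library below.

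**Figure D1:**
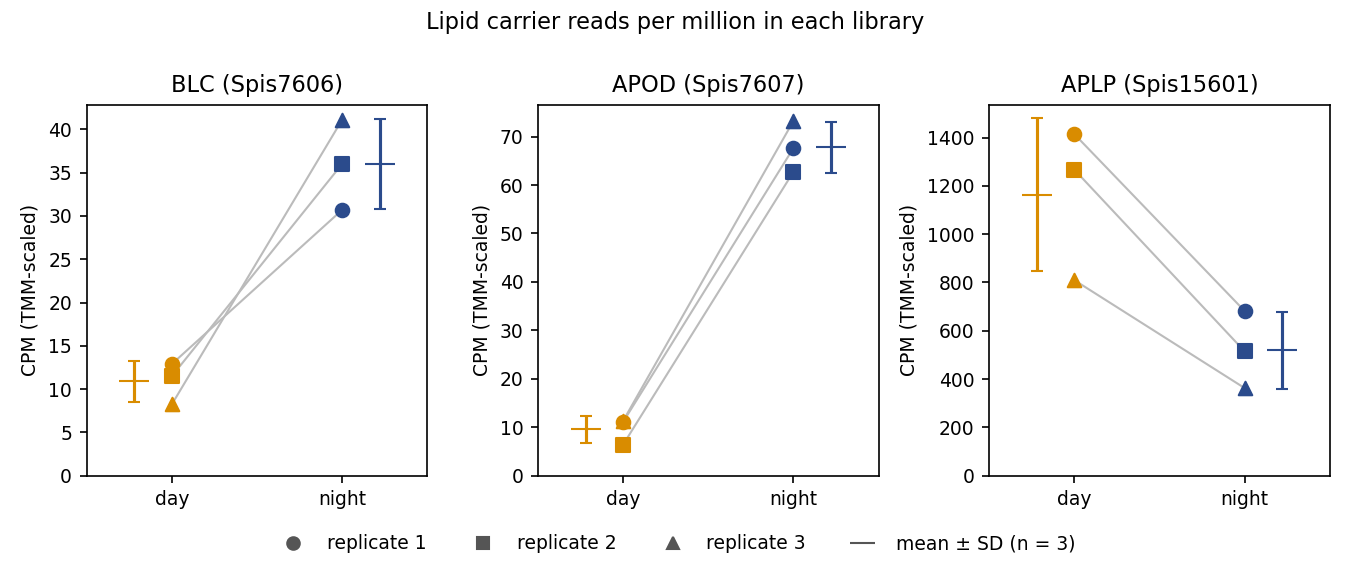
TMM-scaled CPM of BLC, APOD and APLP (vertical axes, starting at 0) in day (left) and night (right) libraries, with lines joining libraries of the same replicate number and bars for the group mean ± SD (n = 3 each). Day libraries lay below night libraries for BLC (8.24 to 12.9 against 30.7 to 41.1 CPM) and APOD (6.41 to 11.3 against 62.7 to 73.2 CPM) and above them for APLP (809.7 to 1414 against 363 to 682 CPM).

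The spread between replicates is given as a description too, since the calls from which the lipid carriers were picked weigh a fold against this spread. For APOD in night libraries the coefficient of variation was 7.78%, against 7.85% for counting error alone, and in day libraries 28.9%, against 22.0%. For BLC it was 21.9% in day libraries, where counting gives 18.4%, and 14.4% in night libraries, where counting gives 10.7%. The variance of the reads around an equal share of every library in a group, divided by that of counting alone, was 2.02 by day and 1.64 by night for BLC and 1.59 by day and 0.624 by night for APOD. For the lipocalins these ratios were above that of counting alone, except APOD by night. Each rests on 3 libraries, and an excess over counting was not tested. APLP varied by 27.1% in day libraries and 30.7% in night libraries, while counting alone gives 1.77% and 2.93%, and the same variance ratio was 351 by day and 149.9 by night. Set against the 500 gene models nearest in mean level, the pooled within-group SD of the log2 level stood at the 40.6th percentile for BLC, the 63.0th for APOD and the 83.4th for APLP.

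The scatter of APLP went with the replicate number. The library numbered 1 was the highest and the library numbered 3 the lowest in both groups. The difference between a day library and its same-numbered night library was therefore even, at 1.05, 1.30 and 1.16 on the log2 scale for numbers 1, 2 and 3. These differences had an SD of 0.12, against a pooled SD of 0.441 between replicates within a group. With the replicate number as a block, the log2 fold change of APLP was 1.17 with a standard error of 0.22. BLC did not share this, being highest in the library numbered 1 by day and in the library numbered 3 by night. APOD had the same order in both groups, but another one, with the library numbered 3 highest and the library numbered 2 lowest. The same-number differences were -1.26, -1.64 and -2.32 for BLC and -2.61, -3.29 and -2.69 for APOD, with SDs of 0.54 and 0.37. No label ties a replicate number to one of the parent colonies.

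The consecutive lipocalins were compared with each other as the share of APOD among the reads of both, which depends neither on depth nor, between groups, on transcript length. Coding lengths were not used here, so the share does not say which of the pair was the more abundant transcript. The share was 46.3% in day replicate 1 (95% interval 34.0 to 58.9%, exact binomial, counting error only), 35.7% in day replicate 2 (18.6 to 55.9%) and 57.9% in day replicate 3 (49.0 to 66.4%). In night replicates 1, 2 and 3 it was 68.8% (63.2 to 73.9%), 63.5% (56.2 to 70.4%) and 64.0% (58.2 to 69.5%). Every day library thus lay below every night library, but the interval of day replicate 3 reached into those of all night libraries and that of day replicate 1 into those of night replicates 2 and 3, while that of day replicate 2 met none. APOD reads per BLC read had a geometric mean of 0.870 in day samples and 1.90 in night samples, a day minus night difference of -1.12 on the log2 scale (means -0.20 ± 0.65 and 0.92 ± 0.19, SD, n = 3 each). Both members of the ratio were chosen on this contrast, and the difference in their response was therefore not tested.

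Summed over libraries, the pair held 228 reads in day samples and 785 in night samples, and APLP 11433 and 4018. APLP reads per lipocalin read were 59.0, 70.6 and 41.4 in the day libraries and 6.93, 5.22 and 3.17 in the night libraries. The groups lay far apart on this scale, with a difference of 3.52 on the log2 scale, or 11.5-fold. This is the sum of opposite differences already given, and its size follows from them.

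**Figure D2:**
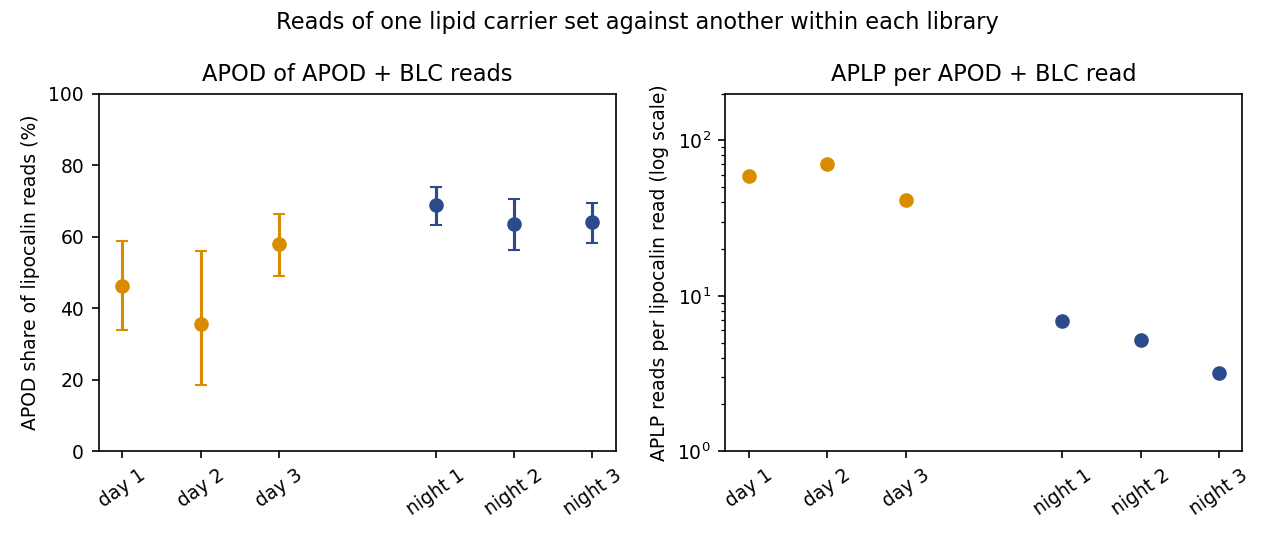
Left, share of APOD among APOD and BLC reads (%), with exact 95% binomial intervals, in day (left) and night (right) libraries. Right, APLP reads per lipocalin read on a log axis for the same libraries. The APOD share was 35.7 to 57.9% by day and 63.5 to 68.8% by night, and the APLP ratio 41.4 to 70.6 by day and 3.17 to 6.93 by night.

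Gene models with nearby ID numbers had not been chosen by their values and were tested. All 18 gene models whose number lay within 5 of a lipid carrier had a read, and edgeR's quasi-likelihood test called 0 of them at an adjusted p of 0.05. None passed in DESeq2, with or without the replicate block, where 0.616% of all gene models passed without it, or in limma-voom, where 0.461% did. At an unadjusted p under 0.05 in edgeR there were 5 of the 18 (2 higher and 3 lower by day), a larger share than the 5.35% of all gene models. The median log2 fold change was 0.18 over the 8 around the lipocalins and -0.02 over the 10 around APLP. Day lay above night in every library for 2 of the 18 and below it for 4, together also a larger share than the 10.1% of all gene models in either direction. Neither excess over all gene models was tested. On the study's list there were 0 of the 18.

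Of the gene models on either side of the lipocalin pair, the one above was lower by day in every library and the one below was not, and neither passed the test. Spis7604.t1, the nearest below in the table, had 144, 118 and 163 CPM in day libraries and 203, 165 and 139.8 CPM in night libraries, and the groups overlapped (edgeR log2 fold change -0.25 with a standard error of 0.20, adjusted p of 1). Spis7608, the next number above APOD, had 0, 0 and 2 reads in day libraries and 4, 3 and 6 reads in night libraries, with an edgeR adjusted p of 0.42. Its reads were fewer by day in every library, as for the pair. Its fitted log2 fold change of -3.09 (standard error 1.05, unadjusted p of 0.0065 in edgeR) rests on 2 reads by day and 13 by night and depends on the prior count of the fit. Farther along, Spis7612 had 138, 133 and 126 CPM in day libraries and 79.3, 85.1 and 94.0 CPM in night libraries, with no overlap. Its log2 fold change was 0.62 with a standard error of 0.18, and the edgeR adjusted p was 0.18, or 0.032 once the replicate number entered as a block. Libraries sharing a number did not rise and fall together here, the order by day being the reverse of that by night. Spis7612 was the 1 neighbour to pass with the block, where 1.69% of all gene models passed, and its direction was opposite to that of the lipocalins.

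Beside APLP, Spis15600 had 3.22, 2.56 and 3.82 CPM in day libraries and 4.85, 7.31 and 7.44 CPM in night libraries (edgeR log2 fold change -0.94 with a standard error of 0.44, adjusted p of 0.90). Spis15602, on the other side, had 86.2, 72.4 and 102 CPM by day and 97.1, 72.6 and 92.0 CPM by night, and its log2 fold change was 0.00 (standard error 0.19). Neither gene model passed in the direction of APLP.

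**Figure D3:**
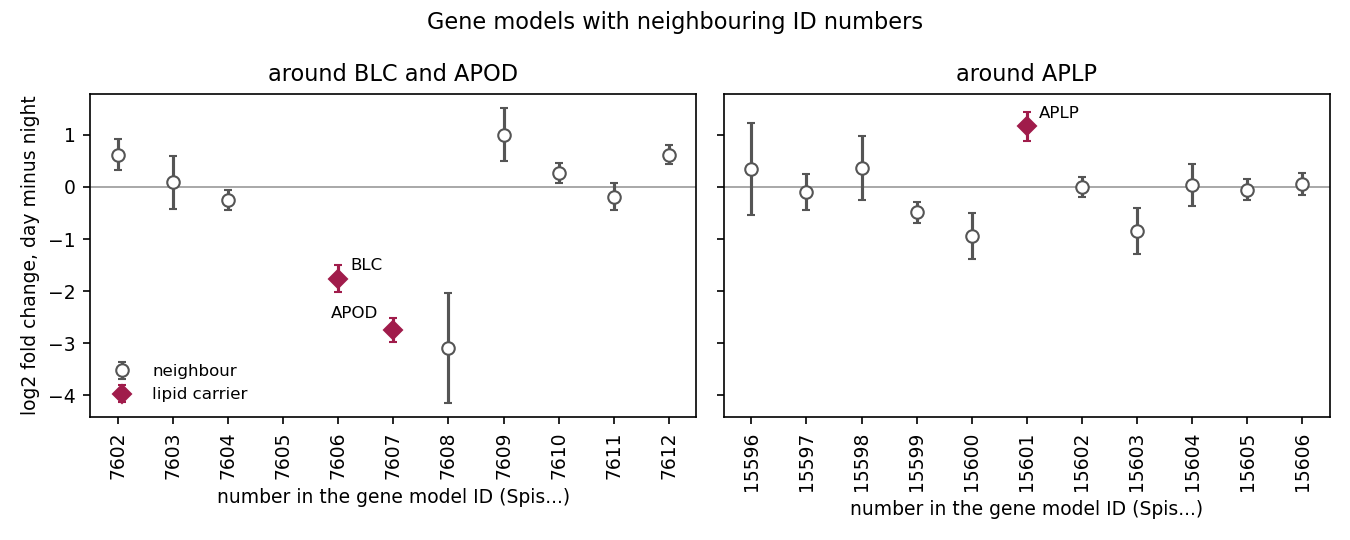
Log2 fold change, day minus night, with its standard error (vertical axis) against the number in the gene model ID, around BLC and APOD (left) and around APLP (right). Diamonds are the lipid carriers and open circles the 18 neighbours, whose fitted values ran from -3.09 (Spis7608, with 2 day and 13 night reads) to 1.00.

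The gene models whose levels ran most like each lipid carrier were sought by Pearson correlation of the log2 level over the 6 libraries, among 17472 others averaging 10 or more reads a library. With 3 libraries on each side of the contrast, any gene model that separates day from night scores high, and the correlation takes no account of size, so these are descriptions with no p. Closest to BLC was SPIN (Spis17125), named for the fly protein spinster, a transporter of the lysosome and endosome (r = 0.990). It was followed by the unnamed Spis4424.t3, UXS1 (Spis2864), named for a UDP-glucuronic acid decarboxylase, XPC (Spis5282), which recognises damaged DNA, and CPI1 (Spis1325), a cysteine proteinase inhibitor (r from 0.988 down to 0.986). Closest to APOD were the unnamed Spis9756 (r = 0.997), FMO5 (Spis7901), a flavin monooxygenase (r = 0.995), and PTHD3 (Spis18759), with a patched domain (r = 0.992). The likeness was one of shape, as the log2 fold changes of Spis4424.t3 and UXS1 were -0.24 and -2.13. Of the 5 nearest, 4 were on the study's list of called gene models for BLC and 3 for APOD.

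The lipocalins were not each other's nearest match. Their correlation was 0.943, which placed APOD 67th among the gene models ranked against BLC and BLC 101st among those ranked against APOD. In the same libraries, APLP correlated at -0.801 with BLC and -0.870 with APOD. Of the 5 gene models nearest to APLP (r from 0.994 to 0.979), the closest being Spis12, 0 were on the study's list. That list is the source of the names, so all 5 were unnamed. Their log2 fold changes, 0.23 to 0.39, were far smaller than that of APLP. All 5 ranked the 6 libraries as APLP did, with day 1 highest and night 3 lowest.

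Other gene models, picked for names or roles tied to lipids, membranes or lysosomes, were mostly lower by day, like the lipocalins. Of 15, taken from the study's own list, 13 fell, 1 rose and 1 did not pass in edgeR's test (adjusted p of 0.05). Their median log2 fold change was -1.45, against 0.00 over all gene models tested, 0.409% of which fell and 0.256% rose. Of all 161 gene models called in that test, 99 fell and 62 rose. The study had called all 15 on these libraries, so neither the count nor any single call is independent evidence of direction. As for the lipid carriers, no p is given for them. Those tied to lipid binding, membranes or lysosomes fell in 7 of 7 cases: PTHD3 (Spis18759) had 48.4 ± 8.29 CPM in day samples and 270.3 ± 8.41 CPM in night samples, and SPIN had 39.9 ± 3.16 CPM in day samples and 92.7 ± 4.39 CPM in night samples (SD, n = 3 each). TSPO, named for the translocator protein that binds cholesterol in mitochondria, and SCRB2 (Spis3490), a lysosomal membrane protein of the CD36 family, had log2 fold changes of -1.45 and -1.18 (standard errors 0.26 and 0.21).

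Among the enzymes, 6 of 8 fell, 1 rose and 1 did not pass. ABH6A (Spis15791), named for a monoacylglycerol lipase, had 12.3 ± 2.13 CPM in day samples and 53 ± 7.0 CPM in night samples (SD, n = 3 each). ABHD4 (Spis2930), named for a lipase of the alpha/beta hydrolase fold, was the 1 that rose, as APLP was higher, with 35.4 ± 3.39 CPM in day samples and 17 ± 1.24 CPM in night samples (SD, n = 3 each, log2 fold change 1.06). It was not called with limma-voom, with the block in DESeq2, after thinning, or when day replicate 2 or either of night replicates 1 and 2 was left out. The next gene model, Spis2931, has the same name and fell, with a log2 fold change of -1.33. The gene model that did not pass was ACOD (Spis21195), an acyl-CoA desaturase that puts double bonds into fatty acids, with 18.8 ± 11 CPM in day samples and 53.1 ± 16.8 CPM in night samples (SD, n = 3 each). Its libraries had 7.51, 19.2 and 29.6 CPM by day and 68.9, 35.5 and 54.8 CPM by night, replicates 1 to 3 in order. The drop was largest for number 1, so the same-number differences were not even as they were for APLP. ACOD did pass in edgeR with the replicate block. That setting called 409 gene models in all, against 128 with the block in DESeq2, so little is read from this pass. DESeq2 without a block, the method behind the study's list, called 15 of the 15, as their choice had largely fixed. ABHD4 and PTHD3 each name more than 1 gene model, and how reads that match several were counted is not given in the sources used here.

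**Figure D4:**
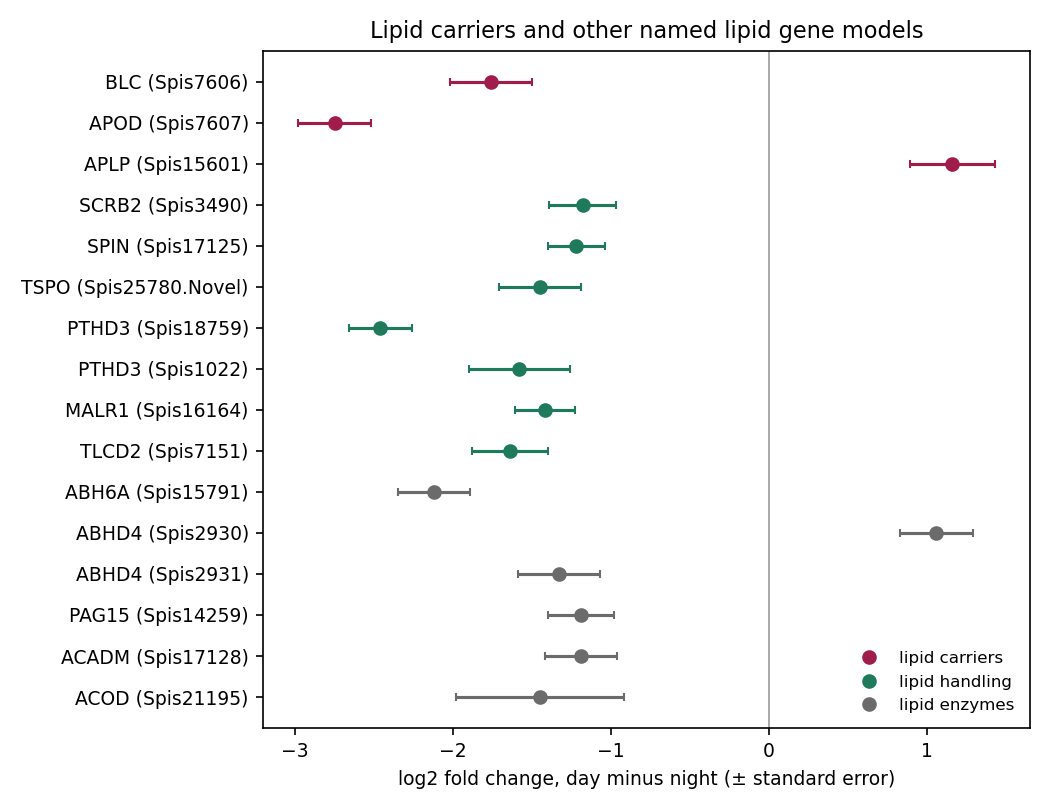
Log2 fold change, day minus night, with its standard error, of the 3 lipid carriers and of 13 of the 15 other gene models picked for names or roles tied to lipids. APLP (1.16) and ABHD4 (Spis2930, 1.06) lay above 0, and all the others lay between -2.75 (APOD) and -1.18 (SCRB2).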

How the data were processed

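Poly(A) RNA of 6 samples, 3 day and 3 night, had been sequenced by ligation on a SOLiD instrument. The authors used Bowtie, version 1.2.3 by the submitters' processing notes, for single-end colorspace alignment against 1 coding sequence per coral gene model, and their own Python script for counting. The table they deposited holds raw whole-number counts for each library, not pooled. An ID with which longer IDs begin also contains the reads of those IDs, which concerned 2371 gene models (9.2%) and 0 of the 3 described here. These reads were subtracted from each such ID. No value fell below 0, and the totals equalled the mapped reads the study lists in 6 of 6 libraries.

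Of 25769 gene models, the 1589 without a read were removed. Day was compared with night in R 4.3.3 with edgeR 4.0.16 (TMM, factors 0.974 to 1.027, estimateDisp, robust quasi-likelihood F test, two-sided, Benjamini-Hochberg adjustment over 24180 gene models). Standard errors are the log2 fold change divided by the square root of F. The correlations used log2 CPM with a prior count of 2. Alternatives were RLE factors, library totals, filterByExpr, a minimum of 10 reads, DESeq2 1.42.0, limma-voom (limma 3.58.1), the replicate block, the values as deposited, thinning to the smallest library and leaving out each library. Scripts for tables and figures ran in Python 3.11.15 with scipy 1.17.1 and matplotlib 3.10.9. The test was tried on simulated counts.

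No library repeated another, as chi-square divided by its degrees of freedom was 4.2 to 14.93 over the pairs. Deviations from group means over 14262 gene models correlated at 0.24, 0.19 and 0.37 between libraries of the same replicate number, and at -0.28 to 0.09 otherwise, and samples sharing a number were treated as pairs in the block. No label ties a number to a colony, so the p-values cover only the spread among these samples, which may be technical.

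The members, lists and tests were chosen with earlier results of these data known. Named are the lipid carriers, gene models within 5 of their ID numbers, the 5 closest in correlation to each, and the 15 of the lipid lists, of which 2 are counted but not reported singly here. Names come from the study's list of called genes. A RefSeq gene table of a newer assembly matched 0 of the 25769 IDs, so lists by product name, lengths, positions and proteins were not used here.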

Additional observations from a re-analysis of the deposited data

How the results depend on the processing

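The log2 fold changes of BLC, APOD and APLP moved by less than 1 SD between replicates under all 16 alternatives, from -1.93 to -1.53, -2.87 to -2.59 and 0.96 to 1.41, and the APOD to BLC ratio lay between -1.45 and -0.80 when 1 library was left out. BLC and APOD passed in 16 of 16 and APLP in 8, a description only, since these libraries chose them. The 8 in which APLP missed the threshold were filterByExpr, the minimum of 10 reads, limma-voom, the deposited values, and leaving out day replicate 1 or 2 (log2 fold change 1.00 and 1.10) or night replicate 2 or 3 (1.15 and 0.96). The number of gene models called, 161, was 409 with the replicate block in edgeR, 128 with it in DESeq2 and 79 with limma-voom. It was 94 to 233 with 1 library left out, with 97 without night replicate 1 and 94 without night replicate 2. With the replicate block in edgeR 1 neighbour was called, against 0 in each other alternative. Of the 15 lipid gene models 7 were called with limma-voom and 11 to 15 with 1 library left out. Among gene models named with a call, the block in edgeR changed those of Spis7612 and ACOD. In DESeq2 the block lowered the count of lipid gene models called to 13, against 15 without it. Lipocalin values in day libraries rest on 10 to 77 reads, which limits the APOD to BLC comparison most in day replicate 2.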

Other observations

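Some gene models with consecutive ID numbers were called together in edgeR's test (adjusted p of 0.05). Of 22921 such pairs among those tested, 9 (0.0393%) had both called in the same direction and 1 in opposite directions. A called neighbour was found for 19 of the 161 called gene models, while 0.666% of all gene models tested were called. Whether called gene models lie together more often than that share would give was not tested. BLC with APOD was among the 9. The 1 pair in opposite directions was that of the ABHD4 gene models Spis2930 and Spis2931 (log2 fold changes 1.06 and -1.33). BLC and APOD were chosen from called gene models, so their place among these pairs is a description.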
